A study of Mus musculus with 6 samples.

Results

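The 44 genes that encode collagen chains, chosen as every gene whose symbol is Col, a number, the letter a and a number, were followed through 6 single-cell libraries of autonomic ganglia of the mouse. They are 44 of the 32285 genes listed, and each had at least 1 UMI (unique molecular identifier, a tag that marks 1 captured mRNA molecule) in every library. The libraries came from whole ganglia of pups at postnatal day 5. All pups carried a Cre transgene on a bacterial artificial chromosome and a tomato reporter in the Rosa locus that Cre turns on. No control genotype was part of the series. The stellate, sphenopalatine and pelvic_1 libraries were made in round 1, and the coeliac, lumbar and pelvic_2 libraries in round 2, with a later version of the 3′ kit and another sequencer. The stellate, coeliac and lumbar ganglia are sympathetic and the sphenopalatine is parasympathetic, while the class of the pelvic ganglion was the question of the study. Since only the pelvic ganglion has 2 libraries, no test between ganglia was possible, and the round cannot be told apart from the ganglion for the other 4. The pups were of both sexes, and how many went into a library was not used here.

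Collagens are trimers of chains wound into a triple helix. Fibrillar chains build the tensile fibres of connective tissue, type IV chains the sheet of the basement membrane, and type VI chains beaded filaments beside it. Smaller groups decorate fibrils (the FACITs, fibril-associated collagens with interrupted triple helices), span the plasma membrane, or line vascular basement membranes (the multiplexins). In a ganglion, fibroblasts and perineurial cells make the capsule, satellite glia and Schwann cells lay a basement membrane around neurons and axons, and vessels carry one of their own.

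After removal of poor droplets, 21442 cells of 30777 droplets remained, from libraries of 39353313 to 113352559 UMIs. Clusters were computed without the collagen genes and named from lists of markers, and UMIs were summed per class and library. Neurons numbered 2720 in the stellate, 1893 in the sphenopalatine, 875 in pelvic_1, 237 in the coeliac, 931 in the lumbar and 369 in pelvic_2. Glia numbered 563 to 2774 per library, fibroblasts 181 to 846, mural cells 27 to 270, endothelial cells 37 to 230 and macrophages 27 to 242. The 8 fibroblast markers summed to 9751 CPM or more in fibroblasts, and to at most 134.6 in neurons and 100.5 in glia. They reached up to 219.6 CPM in endothelial cells, 573.2 in mural cells and 880.3 in macrophages. Since the clusters were named from such markers, this separation is partly built in. The 8 mural markers still reached 453.6 to 1311 CPM in endothelial cells, against 10490 or more in mural cells. Up to 49 cell barcodes were shared between libraries of a round, the stellate and the sphenopalatine sharing the most. Levels are CPM, the UMIs of a gene per class and library scaled to the same total of all genes. A 3′ UMI count does not grow with transcript length, so levels of different chains are compared as captured molecules.

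Fibroblasts devoted the most RNA to collagen. The 44 genes together took 30110 to 62070 CPM in fibroblasts, 3255 to 11090 in glia, 3487 to 7790 in mural cells, 3472 to 9617 in endothelial cells and 131 to 359.6 in neurons. The make-up differed by class. Fibrillar chains made 86.84 to 88.95% of the collagen UMIs of fibroblasts and 60.17 to 75.02% of those of glia, but 6.38 to 17.62% of those of endothelial cells, where type IV chains made 58.46 to 79.28%. Mural cells held both, with 31.43 to 52.15% fibrillar and 25.81 to 56.91% type IV.

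**Figure D1:**
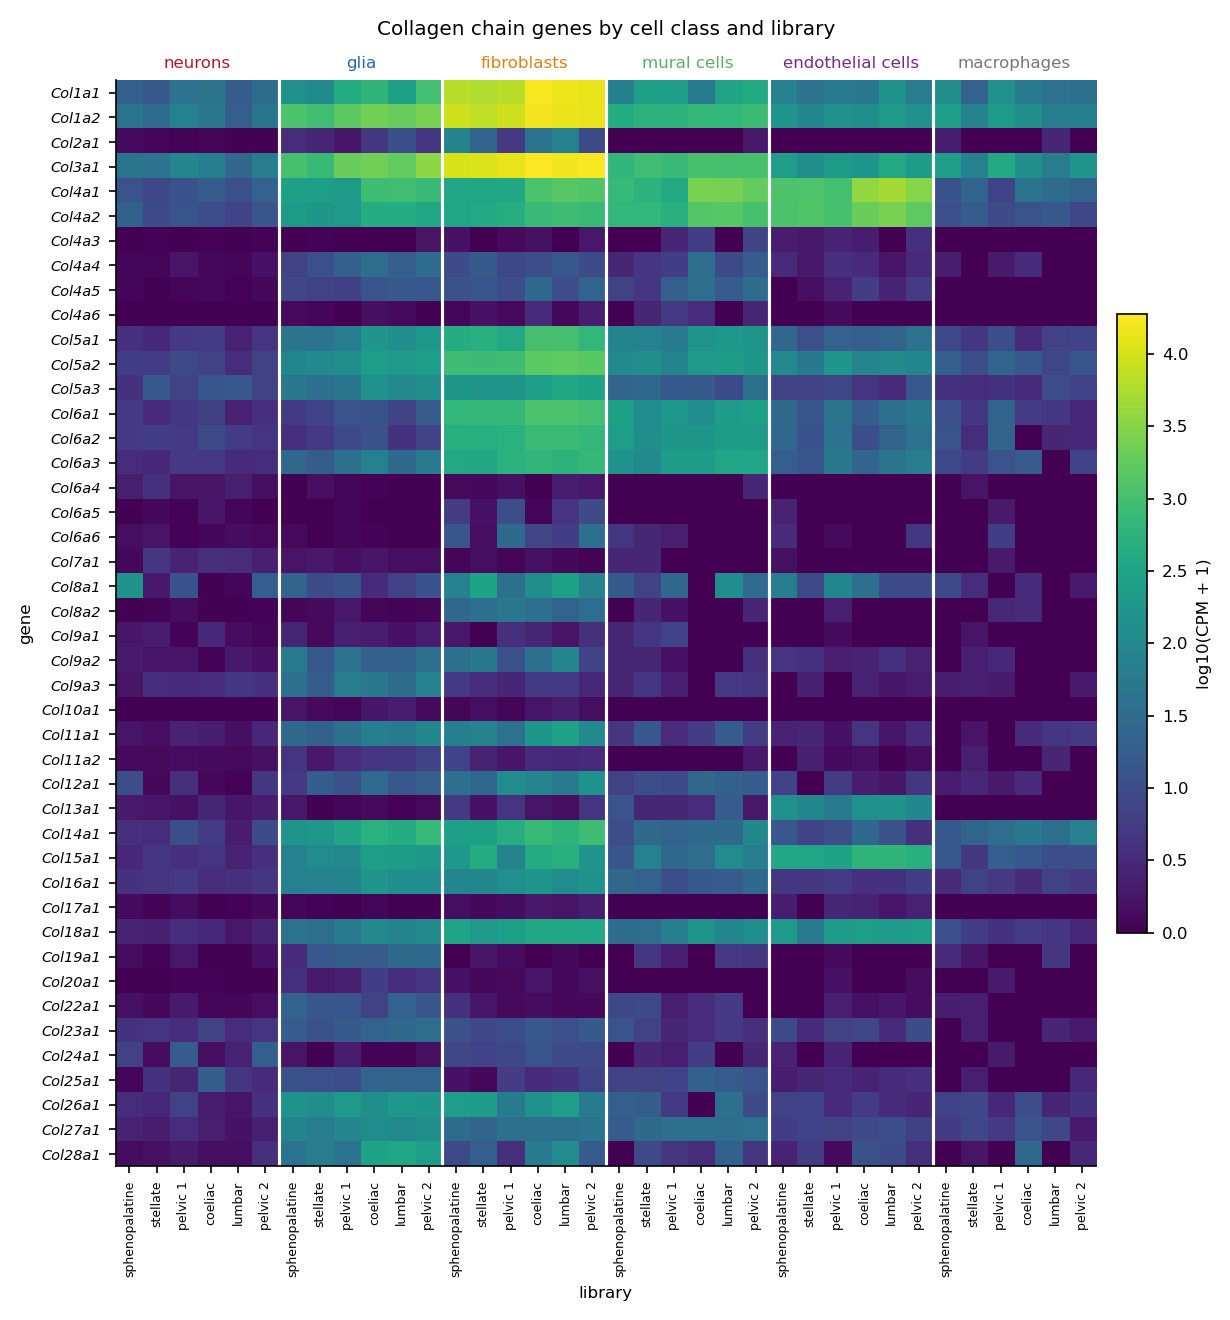
Level of each collagen gene (rows) in every cell class and library (columns), as log10(CPM + 1) by colour. Dark colours are low. Fibroblast columns are the highest for *Col1a1*, *Col1a2*, *Col3a1* and the type VI genes *Col6a1* to *Col6a3*, and endothelial and mural columns for *Col4a1* and *Col4a2*. Neuron columns are mostly dark, and their highest value is *Col8a1* in the sphenopalatine.

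The fibrillar chains led in fibroblasts. *Col3a1* (chr1:45311538-45349706, GRCm38), the chain of type III collagen, stood there at 10560 CPM in the sphenopalatine, 11290 in the stellate, 13340 in pelvic_1, 18870 in the coeliac, 16070 in the lumbar and 16840 in pelvic_2. *Col1a2* (chr6:4504814-4541544), the minor chain of type I collagen, stood at 9198 CPM in the sphenopalatine, 7446 in the stellate, 9142 in pelvic_1, 15790 in the coeliac, 14120 in the lumbar and 13680 in pelvic_2. *Col1a1* (chr11:94936224-94953042), its major chain, stood at 6639 CPM in the sphenopalatine, 5844 in the stellate, 6601 in pelvic_1, 17400 in the coeliac, 14820 in the lumbar and 13720 in pelvic_2. All 3 round 2 libraries were above all 3 round 1 libraries for each of these genes. Next by level was *Col5a2*, of the type V collagen that starts type I fibrils, at 889.8 CPM in the sphenopalatine, 844.4 in the stellate, 880.5 in pelvic_1, 1605 in the coeliac, 1611 in the lumbar and 1529 in pelvic_2.

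Against glia, 20 of the 34 collagen genes that passed the filter on low counts were higher in fibroblasts and 6 lower (edgeR quasi-likelihood test with the library as a block, Benjamini-Hochberg adjusted p under 0.05 and a fold of at least 2). Among all 13902 genes tested the shares were 13.5% higher and 12.6% lower, and the median log2 fold change was 1.58 for the collagen genes against -0.06 for all genes. Of 10 fibrillar genes tested, 9 were higher, among them *Col24a1* with the largest fold (log2 fold change 5.05 ± 0.70 (SE), adjusted p = 4.36e-07) and *Col1a1* (log2 fold change 4.96 ± 0.54 (SE), adjusted p = 7.66e-09). The other 2 leading chains differed less, with *Col3a1* at a log2 fold change 3.17 ± 0.34 (SE), adjusted p = 5.96e-09 and *Col1a2* at a log2 fold change 2.91 ± 0.31 (SE), adjusted p = 4.25e-09. Only *Col27a1* of the fibrillar genes was lower in fibroblasts (log2 fold change -1.36 ± 0.20 (SE), adjusted p = 1.34e-06).

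All 4 type VI genes tested were higher in fibroblasts, with a median log2 fold change of 6.91. *Col6a1* stood at 679.6, 691.4 and 710.5 CPM in round 1 and 1158, 1149 and 996.1 CPM in round 2 in fibroblasts, libraries in the order sphenopalatine, stellate, pelvic_1, then coeliac, lumbar, pelvic_2, and at 4.29, 6.54 and 11.2 CPM in round 1 and 11.1, 6.46 and 16.8 CPM in round 2 in glia. Its groups did not overlap (log2 fold change 6.80 ± 0.37 (SE), adjusted p = 3.98e-15), and *Col6a2*, its partner chain 85161 bases away on chromosome 10, differed as much (log2 fold change 7.01 ± 0.40 (SE), adjusted p = 1.31e-14). Both short-chain genes tested, *Col8a1* and *Col8a2*, and both multiplexins, *Col15a1* and *Col18a1*, were higher in fibroblasts too, *Col15a1* by the least of the 20 (log2 fold change 1.03 ± 0.32 (SE), adjusted p = 0.00788). Its call was lost without the stellate (0.87), the sphenopalatine (0.90) or the lumbar library (0.97, each a log2 fold change), and in round 2 alone (0.81).

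The 6 genes lower in fibroblasts than in glia were *Col9a3*, *Col19a1*, *Col22a1*, *Col25a1*, *Col27a1* and *Col28a1*, of which 3 are FACITs. *Col19a1* had the largest difference (log2 fold change -6.13 ± 0.71 (SE), adjusted p = 1.24e-08). *Col28a1* (chr6:7997808-8192617), a chain with von Willebrand factor domains known from Schwann cells of peripheral nerves, stood in glia at 41 CPM in the sphenopalatine, 63.5 in the stellate, 41.6 in pelvic_1, 301.5 in the coeliac, 344 in the lumbar and 237.5 in pelvic_2. In fibroblasts it stood at 7.85 CPM in the sphenopalatine, 17.6 in the stellate, 2.72 in pelvic_1, 55.1 in the coeliac, 115.3 in the lumbar and 16.3 in pelvic_2, below the glia of the same library in each (log2 fold change -2.28 ± 0.46 (SE), adjusted p = 1.37e-04). Glia held fibrillar and type IV chains too: *Col3a1* had the highest mean over libraries, at 1065 CPM in the sphenopalatine, 761.8 in the stellate, 2025 in pelvic_1, 2342 in the coeliac, 1759 in the lumbar and 3539 in pelvic_2. *Col1a2* stood in glia at 1141 CPM in the sphenopalatine, 922.9 in the stellate, 1563 in pelvic_1, 2311 in the coeliac, 1926 in the lumbar and 2641 in pelvic_2, above *Col3a1* in the sphenopalatine, stellate and lumbar libraries. *Col4a1* followed, at 255.9 CPM in the sphenopalatine, 244.1 in the stellate, 210.6 in pelvic_1, 898.9 in the coeliac, 927.8 in the lumbar and 804.4 in pelvic_2.

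Against mural cells, the other mesenchymal class, fibroblasts were higher for 24 of 34 collagen genes and lower for 0, where 10.5% of all genes were higher and 7.91% lower. At an unadjusted p under 0.05, 5 were lower, and DESeq2 called 3. In round 1 alone 18 were called higher, and in round 2 alone 20. *Col8a1*, *Col24a1* and *Col28a1* lost their calls in each round alone, and *Col8a1* and *Col28a1* also without the coeliac or the pelvic_2 library. *Col8a1* and *Col24a1* lost them without pelvic_1 or without the library block, and *Col28a1* without the sphenopalatine. *Col8a1* further lost its call without the stellate, with DESeq2 size factors and with no filter on low counts. *Col1a1* differed by a log2 fold change 5.65 ± 0.57 (SE), adjusted p = 5.37e-09, and *Col3a1* by a log2 fold change 4.09 ± 0.36 (SE), adjusted p = 3.41e-10. The basement membrane genes did not follow the fibrillar ones: 0 of 4 type IV genes tested were called, with *Col4a1* at -0.65 and *Col4a2* at -0.53 on the log2 scale.

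**Figure D2:**
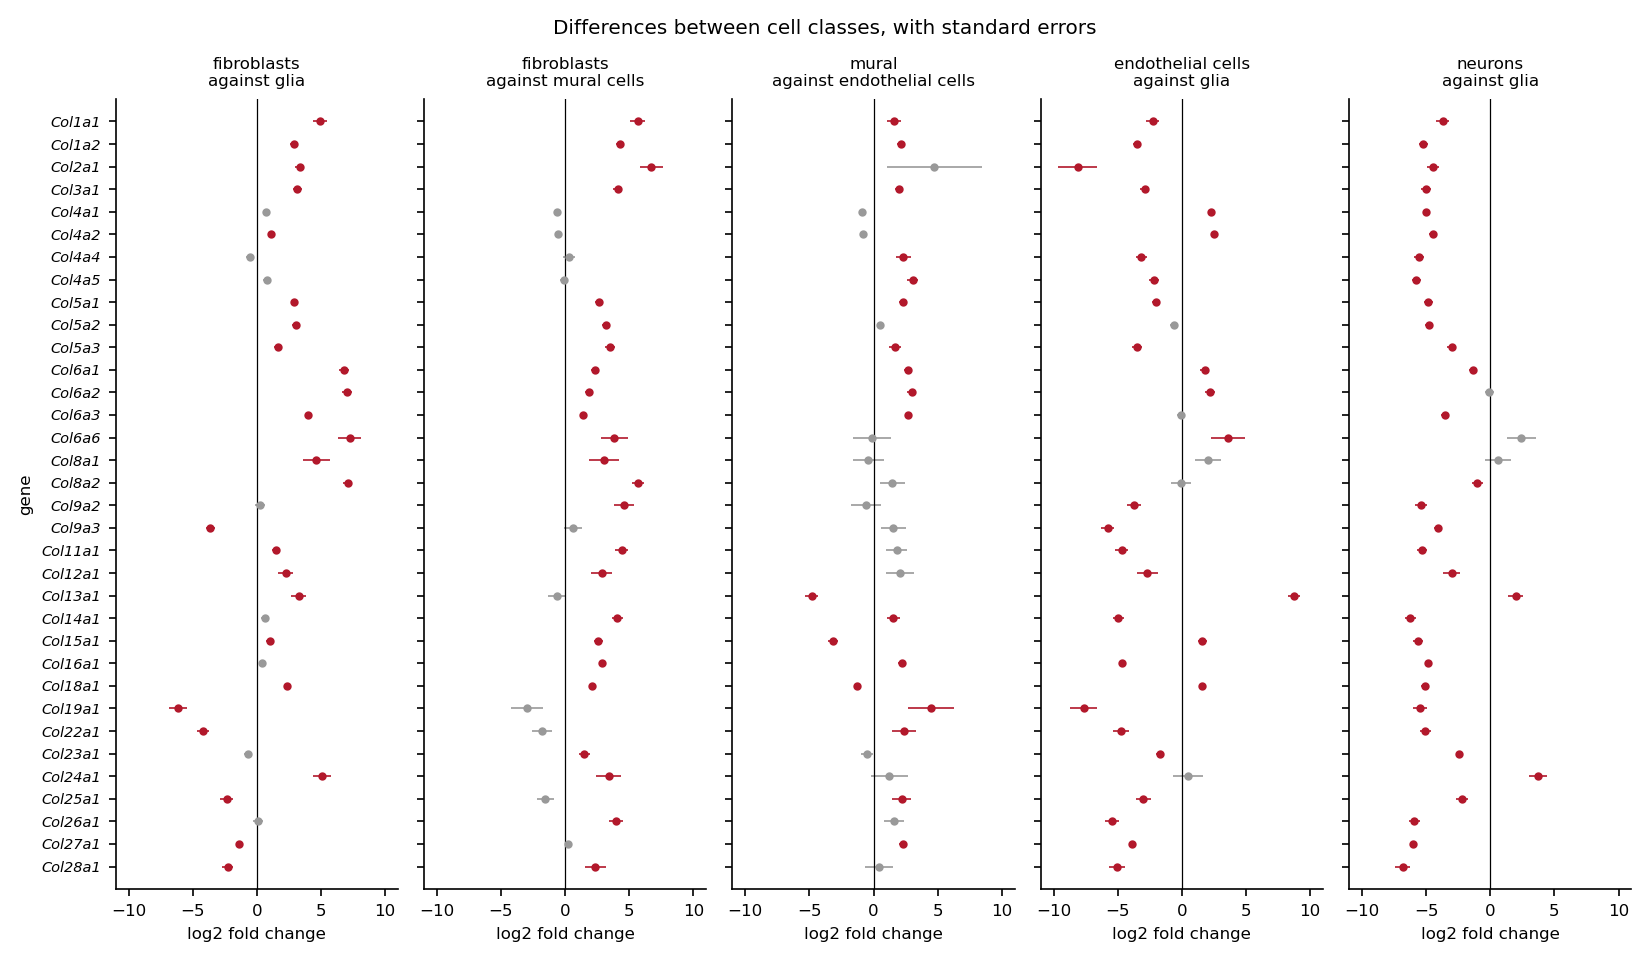
Log2 fold change with its SE for every tested collagen gene in the 5 comparisons of cell classes. Red marks genes called at an adjusted p under 0.05 and at least 2-fold, grey the others; neurons against glia has 29 genes to the left and 2 to the right of 0 among those called.

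Endothelial cells carried the most type IV collagen. *Col4a1* (chr8:11198423-11312826) and *Col4a2* (chr8:11312805-11449287) encode the 2 chains of the most widespread basement membrane trimer and lie head to head on chromosome 8, with annotated starts that overlap by 22 bases. In endothelial cells *Col4a1* stood at 1223 CPM in the sphenopalatine, 1261 in the stellate, 990.5 in pelvic_1, 3794 in the coeliac, 4984 in the lumbar and 3154 in pelvic_2. *Col4a2* stood at 1156 CPM in the sphenopalatine, 1305 in the stellate, 1068 in pelvic_1, 2064 in the coeliac, 2638 in the lumbar and 1646 in pelvic_2. Both were above glia (log2 fold change 2.28 ± 0.24 (SE), adjusted p = 3.20e-09 and log2 fold change 2.50 ± 0.26 (SE), adjusted p = 2.25e-09). Between mural and endothelial cells they differed by less than 2-fold, at -0.92 and -0.83 on the log2 scale, and *Col4a1* passed 2-fold without the coeliac library (-1.09) and both genes in round 1 alone (-1.13 and -1.04). In mural cells *Col4a1* stood at 741.5 CPM in the sphenopalatine, 579 in the stellate, 387.3 in pelvic_1, 2581 in the coeliac, 2532 in the lumbar and 1861 in pelvic_2, and *Col4a2* at 681.6, 667.2 and 482.9 CPM in round 1 and 1417, 1482 and 1055 CPM in round 2. Next by level in endothelial cells were *Col15a1*, at 347.3, 330.9 and 295.1 CPM in round 1 and 619.2, 622.3 and 471.1 CPM in round 2, and *Col3a1*, at 250.0, 134 and 214.5 CPM in round 1 and 174.8, 373.7 and 228.2 CPM in round 2.

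Endothelial cells and glia differed for most collagen genes. Of 34 tested, 8 were higher in endothelial cells, where 15.5% of all genes were, and 21 lower, where 16.5% were. The median log2 fold change was -2.48 for the collagen genes and -0.08 for all genes. The 8 included *Col13a1* (chr10:61838236-61979108), a chain that spans the plasma membrane, at 142 CPM in the sphenopalatine, 94.5 in the stellate, 58.3 in pelvic_1, 138.5 in the coeliac, 151.6 in the lumbar and 97.7 in pelvic_2 in endothelial cells. In glia *Col13a1* was at most 0.911 CPM in any library (log2 fold change 8.73 ± 0.50 (SE), adjusted p = 9.48e-14). *Col15a1* and *Col18a1*, the chains of vascular basement membrane zones, were the other called pair outside types IV and VI (log2 fold changes 1.60 and 1.55). All 7 FACITs tested were lower in endothelial cells. Of the 8 higher genes, *Col6a1* and *Col6a2* lost their calls when the UMIs expected from free RNA were subtracted. *Col6a6*, also of the 8, rested on 16 endothelial UMIs. Its call was lost without the sphenopalatine, without pelvic_2 and in round 1 alone.

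Mural cells exceeded endothelial cells for 16 of 34 collagen genes, where 11.7% of all genes were higher, and were lower for 3, where 11.4% of all genes were. The 3 lower genes were *Col13a1* (log2 fold change -4.80 ± 0.51 (SE), adjusted p = 3.40e-08), *Col15a1* (log2 fold change -3.17 ± 0.38 (SE), adjusted p = 7.32e-08) and *Col18a1* (log2 fold change -1.28 ± 0.28 (SE), adjusted p = 4.73e-04). The 16 higher genes included 6 of 10 fibrillar, 3 of 4 type VI, 4 of 7 FACIT and 2 of 4 type IV genes, with *Col6a3* at a log2 fold change of 2.69 and *Col1a2* at 2.12. *Col1a1* in mural cells stood at 69.3, 258.8 and 250.6 CPM in round 1 and 60.1, 311.9 and 409.2 CPM in round 2, so that 4 of its 6 mural libraries were above the highest endothelial value. Its call (log2 fold change 1.60 ± 0.51 (SE), adjusted p = 0.0132) was lost without the stellate (1.28) or pelvic_2 (1.33), and in each round alone (1.64 and 1.55, log2 fold changes). *Col3a1* stood in mural cells at 661, 910.7 and 784.2 CPM in round 1 and 1057, 1022 and 1075 CPM in round 2 and *Col1a2* at 441.9, 575.2 and 567.1 CPM in round 1 and 716.1, 664.9 and 867.1 CPM in round 2. Of the FACITs, *Col14a1*, *Col19a1* and *Col22a1* lost their calls when the UMIs expected from free RNA were subtracted, and *Col19a1* and *Col22a1* rested on 9 and 12 mural UMIs. Only 9 of the genes were called higher in round 1 alone. Mural libraries held as few as 27 cells, which limits the low genes of this comparison.

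As a share of their RNA, neurons were the poorest in collagen. Against glia 29 of 34 genes were lower in neurons and 2 higher, where 22.4% of all genes were lower and 22.3% higher, and the median log2 fold change was -4.81 for collagen genes and 0.02 for all genes. *Col28a1* had the largest difference (log2 fold change -6.84 ± 0.57 (SE), adjusted p = 9.79e-12), and *Col3a1* (log2 fold change -4.99 ± 0.38 (SE), adjusted p = 1.06e-12), *Col4a1* (log2 fold change -5.00 ± 0.28 (SE), adjusted p = 1.32e-15) and the 7 FACITs tested were lower as well. The 2 higher genes were *Col24a1*, a fibrillar chain (log2 fold change 3.73 ± 0.68 (SE), adjusted p = 1.35e-05), and *Col13a1* (log2 fold change 1.98 ± 0.59 (SE), adjusted p = 0.00411), the second at about 1 CPM in neurons and not called in round 1 alone (1.55). For *Col6a2* no difference was called (log2 fold change -0.06 ± 0.34 (SE), adjusted p = 0.879), but it was called higher in neurons, as was *Col6a6*, once the free RNA expected in each class, described next, was subtracted.

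Since dissociated ganglia release RNA that can enter any droplet, a low level in neurons need not be made by them. For each library, the UMIs per neuron that free RNA would bring were computed from markers of the other classes. Cells outside the named classes were not among the sources. Neurons held between 2.37 and 16.9% of the level of glial markers in glia, 0.208 to 2.43% for fibroblast markers, 0.307 to 1.42% for mural, 0.371 to 0.762% for endothelial and 0.0249 to 0.509% for macrophage markers. Each collagen gene's level in those classes, times these shares, gave its expectation in neurons. Free RNA and RNA from cells stuck to a neuron cannot be told apart this way.

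The type I and III chains in neurons were near that expectation. *Col3a1*, the highest in neurons in 5 of 6 libraries, stood at 45.6 CPM in the sphenopalatine, 41.3 in the stellate, 88.3 in pelvic_1, 65.2 in the coeliac, 24.9 in the lumbar and 61.2 in pelvic_2. Its ratio of observed to expected UMIs was 0.832 in the sphenopalatine, 0.909 in the stellate, 0.818 in pelvic_1, 1.19 in the coeliac, 1.46 in the lumbar and 0.701 in pelvic_2. *Col1a2* stood in neurons at 44, 30.3 and 75.8 CPM in round 1 and 48.8, 18.6 and 45 CPM in round 2 and *Col1a1* at 19.1, 14.4 and 41.2 CPM in round 1 and 42.8, 16.6 and 31.6 CPM in round 2. *Col1a1* had ratios of 0.623 to 1.58, *Col1a2* of 0.658 to 1.17, *Col4a1* of 0.745 to 1.89, *Col15a1* of 0.771 to 1.13 and *Col28a1* of 0.376 to 1.31. With summed reference genes as the base, the ratios were lower, 0.176 to 0.591 for *Col3a1* and 0.134 to 0.651 for *Col1a1*. A pelvic cluster of 18 cells led by fibroblast genes such as *Dcn* had 17 cells in pelvic_1 and 1 in pelvic_2. The 17 held 974 of the 1485 *Col1a1* and 1476 of the 3183 *Col3a1* UMIs of pelvic_1 neurons. The 1 cell held 371 of the 1172 *Col1a1* and 552 of the 2273 *Col3a1* UMIs of pelvic_2 neurons. Up to 84.8% of neurons (pelvic_2) nonetheless had a *Col3a1* UMI, and 19.9% once each neuron was thinned to 4000 UMIs.

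Of the 38 members with at least 20 UMIs in the neurons of some library, 16 were over 3 times the expectation in none of those libraries, 10 in some and 12 in all. The other 6 had fewer UMIs in every library. No share over all genes was computed for this split. With 20 UMIs required in all 6 libraries, 21 members could be judged and 2 were over 3 times the expectation in each, *Col13a1* and *Col23a1*, where 96.1% of all genes were. *Col23a1* (chr11:51289920-51583918), another membrane-spanning chain, stood in neurons at 3.16 CPM in the sphenopalatine, 3.59 in the stellate, 2.63 in pelvic_1, 5.73 in the coeliac, 2.46 in the lumbar and 3.37 in pelvic_2, at ratios of 7.49 to 37.7. By CPM glia held more of it, at 15.6, 10.7 and 15.5 CPM in round 1 and 22.2, 25.7 and 32.7 CPM in round 2 (log2 fold change -2.41 ± 0.25 (SE), adjusted p = 3.69e-10). By UMIs per cell neurons were above glia except in the lumbar and pelvic_2. Neurons held 0.126, 0.104 and 0.109 UMIs per cell in round 1 and 0.435, 0.191 and 0.339 in round 2. Glia held 0.0784, 0.0393 and 0.0693 in round 1 and 0.286, 0.283 and 0.4085 in round 2. *Col13a1* was lower, at 1.02, 0.821 and 0.555 CPM in round 1 and 1.89, 0.828 and 1.13 CPM in round 2 in neurons and ratios of 3.15 to 5.53. With summed reference genes its ratios were 0.860 to 2.09, and with neurons taken by cluster its lowest was 2.99. Without neurons rich in other cells' markers or without simulated doublets, 5 libraries kept 20 UMIs, with lowest ratios of 5.30 and 6.06.

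**Figure D3:**
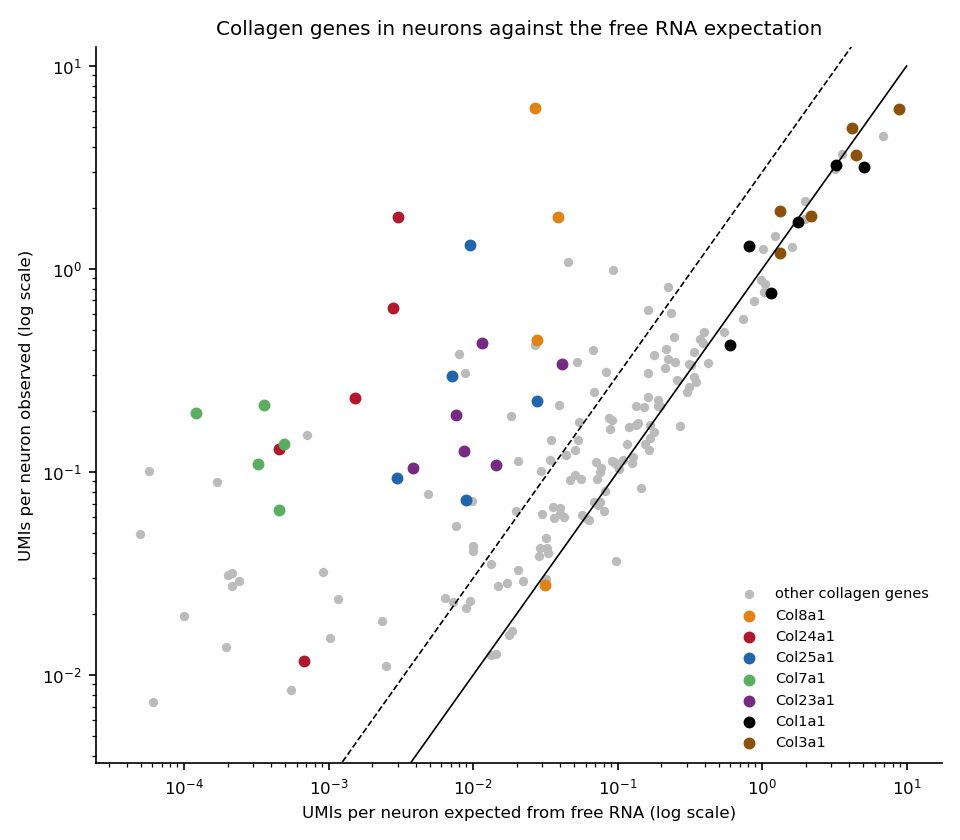
UMIs per neuron observed (vertical) against those expected from free RNA (horizontal), both on log scales, 1 point per collagen gene and library with at least 20 UMIs in its neurons; the solid line marks a ratio of 1 and the dashed line a ratio of 3. Abundant chains such as *Col3a1* lie at ratios of 0.701 to 1.46, while *Col24a1* lies at ratios of 17.5 to 599.

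The 12 members above in all libraries with enough UMIs were *Col6a4*, *Col6a5*, *Col6a6*, *Col7a1*, *Col9a1*, *Col11a2*, *Col12a1*, *Col13a1*, *Col17a1*, *Col23a1*, *Col24a1* and *Col25a1*. *Col6a5* and *Col17a1* rested on 1 library each, *Col6a6* and *Col12a1* on 3, *Col6a4*, *Col9a1* and *Col11a2* on 4, and *Col7a1*, *Col24a1* and *Col25a1* on 5. With summed reference genes, *Col12a1* was above in 1 of 3 libraries, *Col6a6* in 2 of 3 and *Col11a2* in 3 of 4. *Col7a1*, the anchoring fibril chain, stood in neurons at 0.251, 3.75 and 1.58 CPM in round 1 and 2.84, 2.51 and 1.37 CPM in round 2, and in fibroblasts at no more than 0.554 CPM. *Col6a4*, a long type VI chain, stood in neurons at 1.24, 3.08 and 0.666 CPM in round 1 and 0.667, 1.3 and 0.458 CPM in round 2. Neither passed the filter of the class comparison, and both were called higher in neurons than glia when no filter was set. *Col9a1*, a FACIT chain, was at 0.806, 1.1 and 0.0832 CPM in round 1 and 2, 0.4 and 0.162 CPM in round 2 in neurons. *Col6a6* was at 0.463, 0.669 and 0.0832 CPM in round 1 and 0.167, 0.373 and 0.269 CPM in round 2, *Col6a5* at 0.0661, 0.253 and 0.111 CPM in round 1 and 0.834, 0.166 and 0.0269 CPM in round 2, and *Col11a2* at 0.278, 0.29 and 0.36 CPM in round 1 and 0.334, 0.304 and 0.539 CPM in round 2. Each of these 3 stayed below 1 CPM in every neuronal sum, as did *Col17a1* at 0.344, 0.0884 and 0.388 CPM in round 1 and 0, 0.0828 and 0.242 CPM in round 2. A count of 0 allows a level of up to 0.167 CPM of *Col17a1* in coeliac neurons.

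Those above the expectation in only some libraries were mixed. *Col5a3*, a type V chain, stood in neurons at 3.21 CPM in the sphenopalatine, 14.4 in the stellate, 6.05 in pelvic_1, 13.1 in the coeliac, 13.9 in the lumbar and 6.06 in pelvic_2, with ratios of 15.8 in the stellate, 10.6 in the coeliac and 24.1 in the lumbar against 2.52 in the sphenopalatine, 3.6 in pelvic_1 and 2.59 in pelvic_2. The 3 high libraries are the sympathetic ones. *Col9a3*, with ratios of 1.86 to 35, was at 0.688, 2.66 and 2.22 CPM in round 1 and 2.5, 3.98 and 3.1 CPM in round 2. *Col4a2* passed only in the sphenopalatine (3.64), at 20.4, 7.74 and 11.9 CPM in round 1 and 9.18, 6.28 and 12.4 CPM in round 2. *Col6a2* had ratios of 1.26 to 6.62 at 4.06, 4.94 and 4.24 CPM in round 1 and 8.29, 4.46 and 3.58 CPM in round 2, and *Col16a1* of 1.98 to 5.48 at 3.03, 3.5 and 4.38 CPM in round 1 and 2.45, 2.76 and 3.74 CPM in round 2. With summed reference genes no library passed for *Col4a2*, *Col6a2*, *Col6a3*, *Col9a2* or *Col16a1*. Their highest ratios were then 1.58, 0.841, 0.722, 1.17 and 2.04. The subtraction after which *Col6a2* was called higher in neurons was run only with the main setting. *Col8a1*, described with the ganglia, passed in 3 of 4 libraries. The other members, *Col6a3*, *Col9a2*, *Col19a1* and *Col22a1*, had highest ratios of 3.27, 7.31, 15.1 and 4.38. Their neuronal levels were 2.51, 2.07 and 4.16 CPM in round 1 and 4.06, 2.28 and 2.45 CPM in round 2 for *Col6a3*, 1.06, 0.732 and 0.721 CPM in round 1 and 0.111, 0.925 and 0.619 CPM in round 2 for *Col9a2*, 0.383, 0.114 and 0.86 CPM in round 1 and 0.0556, 0.0552 and 0.619 CPM in round 2 for *Col19a1* and 0.582, 0.24 and 1.05 CPM in round 1 and 0.167, 0.138 and 0.431 CPM in round 2 for *Col22a1*.

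The same rule was applied to the other classes. No share over all genes was computed for them, so these counts cannot be set against other genes. In fibroblasts 34 of 35 members with enough UMIs were over 3 times the expectation in all their libraries, and in glia 28 of 32. In glia *Col6a2* passed in none, *Col6a1* in 1 of 6 libraries, *Col8a1* in 3 and *Col1a1* in 4. In endothelial cells 6 of 17 passed in all their libraries and 9 in none, among them *Col1a1*, *Col1a2*, *Col3a1*, *Col6a1*, *Col6a2* and *Col6a3*. Mural reference genes stood at 11.6 to 61.1% of their mural level in endothelial cells, which raises that expectation. In mural cells 9 of 18 passed in all their libraries and 9 in some, where *Col1a1* passed in 1 of 6 libraries and *Col1a2* and *Col3a1* in 4 of 6. In macrophages 0 of 9 passed in all libraries and 8 in none. With the expected free RNA subtracted from every class, some calls between classes were lost. These were *Col4a2* and *Col15a1* in fibroblasts against glia, *Col6a3* and *Col8a1* in fibroblasts against mural cells, *Col6a1* and *Col8a2* in neurons against glia, and those given with the comparisons of vessel cells.

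The 200 bases before the start are shown for *Col3a1*, the highest chain of fibroblasts, for *Col28a1* and *Col13a1*, which differed by large folds between glia or endothelium and other classes, and for 3 genes above the free RNA expectation in neurons (RefSeq, GRCm38.p6, 5′ to 3′ on the gene's strand, no exonic base). For *Col25a1* the RefSeq start lies inside the GENCODE gene, downstream of the gene start given with its levels, so the window is that of another transcript start. Of the 44 genes, 35 matched the promoter table. Capitals mark the words CCAAT (as in the box bound by NF-Y), TATAAA (as in the TATA box of core promoters) and GGGCGG (as in the GC box). Each was sought on either strand and at any place in the window.
*Col3a1*, chr1:45311338-45311537, plus strand: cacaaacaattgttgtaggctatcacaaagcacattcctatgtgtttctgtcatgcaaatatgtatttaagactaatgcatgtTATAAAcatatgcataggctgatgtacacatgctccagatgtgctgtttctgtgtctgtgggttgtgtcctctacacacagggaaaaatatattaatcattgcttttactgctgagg
*Col28a1*, chr6:8192618-8192817, minus strand: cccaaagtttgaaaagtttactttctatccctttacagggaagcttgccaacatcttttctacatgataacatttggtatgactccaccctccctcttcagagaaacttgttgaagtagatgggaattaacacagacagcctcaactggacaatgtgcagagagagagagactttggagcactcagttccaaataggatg
*Col13a1*, chr10:61979109-61979308, minus strand: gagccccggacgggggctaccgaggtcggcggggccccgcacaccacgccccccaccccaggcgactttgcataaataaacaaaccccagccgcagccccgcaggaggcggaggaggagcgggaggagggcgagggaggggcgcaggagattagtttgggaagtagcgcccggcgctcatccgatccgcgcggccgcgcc
*Col23a1*, chr11:51289720-51289919, plus strand: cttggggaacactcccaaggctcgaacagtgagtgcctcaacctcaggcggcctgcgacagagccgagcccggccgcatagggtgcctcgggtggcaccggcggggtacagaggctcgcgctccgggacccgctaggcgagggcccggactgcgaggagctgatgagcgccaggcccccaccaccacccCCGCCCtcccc
*Col24a1*, chr3:145292272-145292471, plus strand: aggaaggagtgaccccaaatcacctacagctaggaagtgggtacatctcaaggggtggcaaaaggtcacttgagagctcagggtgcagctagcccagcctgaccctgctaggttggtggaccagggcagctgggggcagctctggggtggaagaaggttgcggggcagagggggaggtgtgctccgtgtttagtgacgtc
*Col25a1*, chr3:130180645-130180844, plus strand: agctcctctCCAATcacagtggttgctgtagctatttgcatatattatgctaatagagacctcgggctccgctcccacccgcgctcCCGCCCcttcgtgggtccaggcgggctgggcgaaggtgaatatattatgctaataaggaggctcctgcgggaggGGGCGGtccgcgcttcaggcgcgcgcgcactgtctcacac
CCAAT was in the window of 10 of the 35 genes, against 29.3% of 32851 promoters, TATAAA in 4, against 9.96%, and GGGCGG in 21, against 31%. Of the 6 shown, *Col3a1* held the word TATAAA, in the part of the window farther from the start than a core promoter box. *Col25a1* held CCAAT and 2 matches to GGGCGG, *Col23a1* held 1 match to GGGCGG, and *Col13a1*, *Col24a1* and *Col28a1* held none of the 3 words.

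Between ganglia, most collagen genes differed in the summed UMIs of neurons, free RNA included. Over 2-fold between the highest and lowest library of a round were 26 of 36 members in round 1 and 29 of 34 in round 2, where 28.4% and 22.2% of all genes were. These counts take in genes near the free RNA expectation. *Col3a1* in round 2, for instance, was highest in the coeliac, at a ratio of 1.19 to the expectation. The genes described next were also over 3 times the free RNA expectation in the higher library under the main setting. With summed reference genes, *Col4a2*, *Col6a2*, *Col9a2* and *Col13a1* among them were over 3 times in no library.

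*Col8a1* (chr16:57624258-57754737), a short-chain collagen of subendothelial matrix, was highest in sphenopalatine neurons. It stood in neurons at 155.2 CPM in the sphenopalatine, 0.96 in the stellate, 10.9 in pelvic_1, 0.0556 in the coeliac, 0.138 in the lumbar and 17.9 in pelvic_2. The sphenopalatine was 161.7-fold above the stellate and at a ratio of 231 to the expectation, while the stellate was at 0.885. A UMI was found in 74.5% (95% Wilson interval 72.5 to 76.4%) of sphenopalatine neurons, in 38.8% after thinning to 4000 UMIs and in 24.5% after thinning to 2000, against 3.73% of glia and 2.78% of macrophages at 2000. Pelvic neurons came next, at 17% and 29.5%. The coeliac sum held 1 UMI, so no fold is given in round 2. The 3 sympathetic libraries came last, at no more than 1.36%.

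*Col24a1* (chr3:145292472-145552011) was highest in pelvic neurons in both rounds, at 5.79 CPM in the sphenopalatine, 0.404 in the stellate, 15.6 in pelvic_1, 0.5 in the coeliac, 1.67 in the lumbar and 17.9 in pelvic_2. Pelvic_1 was 38.65-fold above the stellate and pelvic_2 35.68-fold above the coeliac, and the 2 pelvic libraries differed from each other by a ratio of 1.14. The coeliac sum held 9 UMIs. In pelvic_1 and pelvic_2 the ratios to the expectation were 232.2 and 598.6. A UMI was found in 35.4% (95% Wilson interval 32.3 to 38.7%) of pelvic_1 and 55.3% (95% Wilson interval 50.2 to 60.3%) of pelvic_2 neurons, and in 5.03% and 7.1% after thinning to 4000. In glia thinned to 2000 UMIs the share was 0.175% in pelvic_1 and in macrophages 0%, which allows a share of up to 2.56%. These are at a lower depth than the neuronal shares at 4000, so they are not like for like. Before thinning, the median depth was 26637 to 108493 UMIs per neuron and 3476.5 to 12117 per glial cell over the libraries. Fibroblasts held *Col24a1* at 7.1, 6.37 and 7.47 CPM in round 1 and 11.8, 8.78 and 7.79 CPM in round 2, a range narrower than that of neurons.

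*Col25a1* (chr3:130131501-130599877), a membrane-spanning chain known from motor neurons, was highest in coeliac neurons, at 0.211 CPM in the sphenopalatine, 3.21 in the stellate, 1.77 in pelvic_1, 17.4 in the coeliac, 3.84 in the lumbar and 2.23 in pelvic_2. Within round 1 the stellate was 15.16-fold above the sphenopalatine, and within round 2 the coeliac was 7.76-fold above pelvic_2. A UMI was found in 42.2% (95% Wilson interval 36.1 to 48.6%) of coeliac neurons, 5.17% after thinning. Glia held *Col25a1* in every ganglion, at 10.3, 10.2 and 9.4 CPM in round 1 and 22.4, 23.2 and 22.8 CPM in round 2.

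*Col12a1*, a FACIT, was also highest in the sphenopalatine and next in the pelvic libraries, at 9.52 CPM in the sphenopalatine, 0.227 in the stellate, 2.77 in pelvic_1, 0.222 in the coeliac, 0.0966 in the lumbar and 3.96 in pelvic_2 in neurons. The sphenopalatine was 41.89-fold above the stellate and pelvic_2 40.98-fold above the lumbar. The stellate sum held 18 UMIs and the lumbar 7. *Col7a1* and *Col6a4* went the other way in round 1, with the stellate 14.93-fold above the sphenopalatine for *Col7a1* and 4.63-fold above pelvic_1 for *Col6a4*. *Col9a1* was highest in the stellate by CPM in round 1, where pelvic_1 held 3 UMIs. In round 2 it was 12.39-fold higher in the coeliac than in pelvic_2, which held 6 UMIs. *Col5a3* was 4.50-fold higher in the stellate than in the sphenopalatine and 2.30-fold higher in the lumbar than in pelvic_2. In round 1, *Col9a3* (3.88-fold, stellate over sphenopalatine), *Col6a5* (3.82-fold, the same pair), *Col22a1* (4.39-fold, pelvic_1 over stellate) and *Col4a2* (2.64-fold, sphenopalatine over stellate) completed the set, with *Col6a6*, whose lowest sum held 3 UMIs. The *Col6a5* fold set 20 UMIs against 5. For *Col9a3* the highest library by UMIs per cell was pelvic_1, not the stellate. In round 2, *Col6a4* (2.83-fold, lumbar over pelvic_2), *Col7a1* (2.07-fold, coeliac over pelvic_2), *Col6a2* (2.31-fold, the same pair), *Col13a1* (2.28-fold, coeliac over lumbar) and *Col23a1* (2.33-fold, the same pair) did, with *Col9a2* and *Col6a6*, whose coeliac sums held 2 and 3 UMIs.

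**Figure D4:**
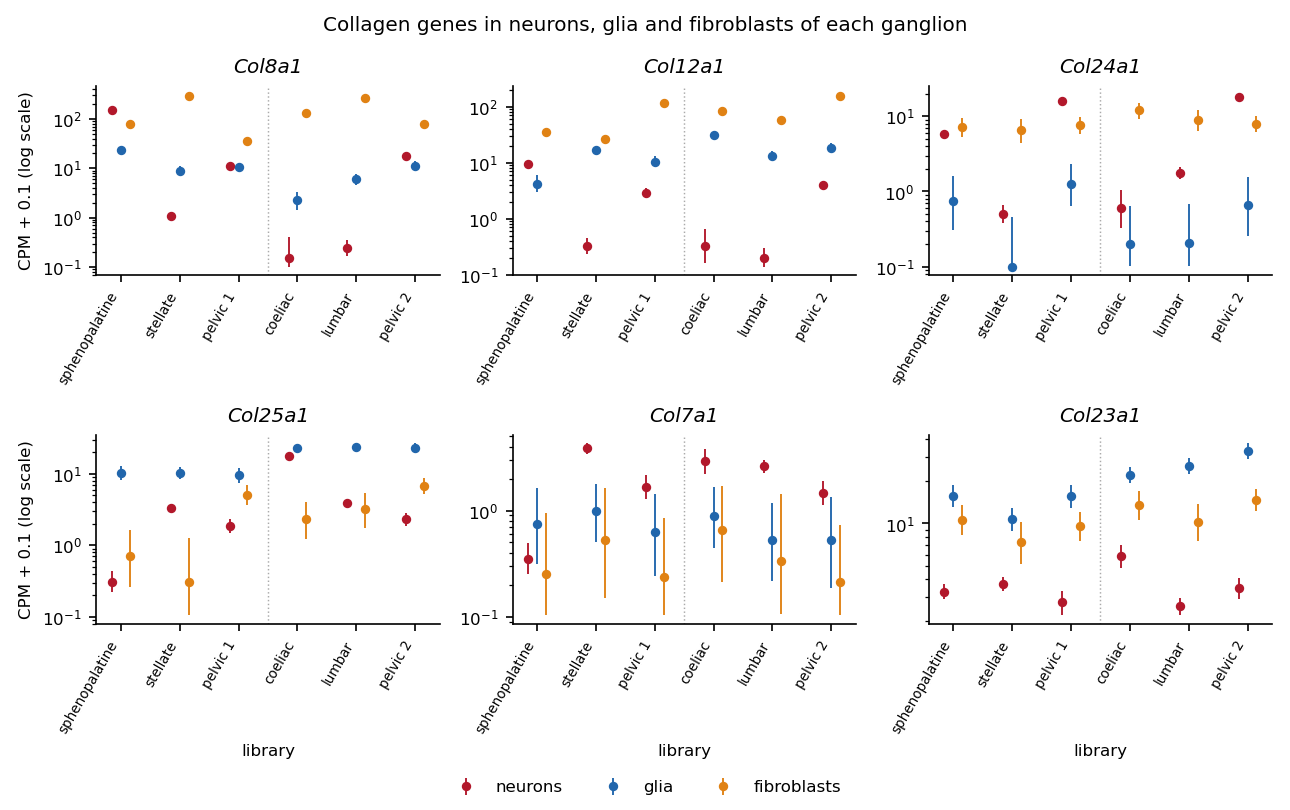
CPM + 0.1 on a log scale for 6 collagen genes in neurons, glia and fibroblasts of each library, with exact Poisson intervals at 95%; the dotted line parts round 1 (left) from round 2 (right). Neuronal *Col24a1* is highest in both pelvic libraries, and neuronal *Col8a1* in the sphenopalatine.

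Within the pelvic ganglion, the chains were unevenly spread over clusters of neurons made without collagen genes. Of 7 clusters, 3 carried the markers of clusters the study names P2, P3 and P4. *Col24a1* was at 28.3 ± 2.44 CPM (mean ± SD, n = 2 libraries) in an unnamed cluster of 227 neurons led by genes such as *Penk*, at 23.7 ± 1.32 CPM in one of 321 neurons, at 11.9 CPM in both libraries in the P2-like cluster, and at 1 ± 0.0785 CPM in the P3-like one. Both libraries gave that order. *Col25a1* was instead highest in the P3-like cluster, at 15 ± 7.26 CPM there, where *Th* and *Dbh* were among the leading genes, and at no more than 2.13 CPM in any other cluster of either library. *Col7a1* was highest there too, at 4.81 ± 0.437 CPM. *Col12a1* was at 10.8 ± 0.595 CPM in the cluster of 321 neurons, and in the P2-like one at 0.163 ± 0.1 CPM. *Col8a1* was at 34 ± 19.2 CPM in the P4-like cluster, 26 ± 5.61 CPM in that of 321 neurons and 2.1 ± 1 CPM in the P2-like one. A cluster of 18 neurons led by fibroblast genes such as *Dcn* held *Col1a1* at 1907 ± 489.9 CPM, where 17 of the 18 were from pelvic_1 and 1 from pelvic_2.

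In glia, 13 of 31 members were over 2-fold apart within round 1 and 10 of 32 within round 2, where 14.4% and 7.1% of all genes were. *Col1a1* was highest in pelvic glia in both rounds, at 139.1 CPM in the sphenopalatine, 108.4 in the stellate, 443.4 in pelvic_1, 637.2 in the coeliac, 263.2 in the lumbar and 1000 in pelvic_2. Pelvic_1 was 4.09-fold above the stellate and pelvic_2 3.80-fold above the lumbar. Glial *Col1a1* was over 3 times the free RNA expectation in 4 of 6 libraries, with a lowest ratio of 1.20. Whether free RNA raises or lowers these folds was not tested. *Col19a1*, a FACIT, was 7.47-fold higher in pelvic_1 than in sphenopalatine glia. Glia led by the myelinating Schwann cell markers were 55 cells in pelvic_1 and 24 in the sphenopalatine. They held less *Col26a1* (19.95 and 39 CPM) than other glia (209.5 and 158.9 CPM) and more *Col1a1* (1066 and 591.6 CPM against 413.5 and 129.8 CPM). No *Col22a1* UMI was found in these few cells. A glial cluster with *Mbp* as its first leading gene, 338 cells in pelvic_1 and 223 in the sphenopalatine, was not among them.

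In fibroblasts, 16 of 35 members were over 2-fold apart within round 1 and 14 of 34 within round 2, where 16.5% and 11% of all genes were. *Col6a6* and *Col6a5*, neighbours on chromosome 9, were highest in pelvic fibroblasts. *Col6a6* stood at 12.4, 0.424 and 27.8 CPM in round 1 and 6.84, 4.98 and 35.9 CPM in round 2 and *Col6a5* at 4.53, 0.637 and 9.51 CPM in round 1 and 0.185, 3.56 and 8.81 CPM in round 2. *Col2a1*, the fibril chain of cartilage, went the other way, at 81.1, 23.8 and 4.07 CPM in round 1 and 42.3, 74.5 and 8.92 CPM in round 2, while the 5 cartilage markers summed to 2.416 to 8.69 CPM in these cells. Perineurial-like fibroblasts, 324 cells in the sphenopalatine and 89 in the stellate, held *Col28a1* at 0.678 and 0 CPM against 13.6 and 20.2 CPM in other fibroblasts of those libraries. They held *Col15a1* at 62.3 and 56.8 against 293.4 and 487.8 CPM, and *Col4a1* at 402.2 and 830.4 against 271.9 and 251.7 CPM.

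The 2 pelvic libraries give the difference between rounds for one ganglion, other animals included. Between them, 3 of 33 members were over 2-fold apart in neurons, 13 of 32 in glia and 8 of 34 in fibroblasts, where 9.63%, 21.4% and 15% of all genes were. *Col4a1* was 3.82-fold higher in pelvic_2 than pelvic_1 in glia, 3.70-fold in fibroblasts, 4.80-fold in mural and 3.18-fold in endothelial cells. *Col28a1* was 5.70-fold higher in glia and 5.99-fold in fibroblasts. The ratio of *Col4a1* to *Col4a2* parted the rounds in all 5 classes: in glia it was 1.08 to 1.34 in round 1 and 2.06 to 2.2 in round 2, and in endothelial cells 0.928 to 1.06 and 1.84 to 1.92. That of *Col1a1* to *Col1a2* in fibroblasts was 0.722 to 0.785 and 1 to 1.1. The libraries of a round share kit, sequencer and site, which cannot be told apart.

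**Figure D5:**
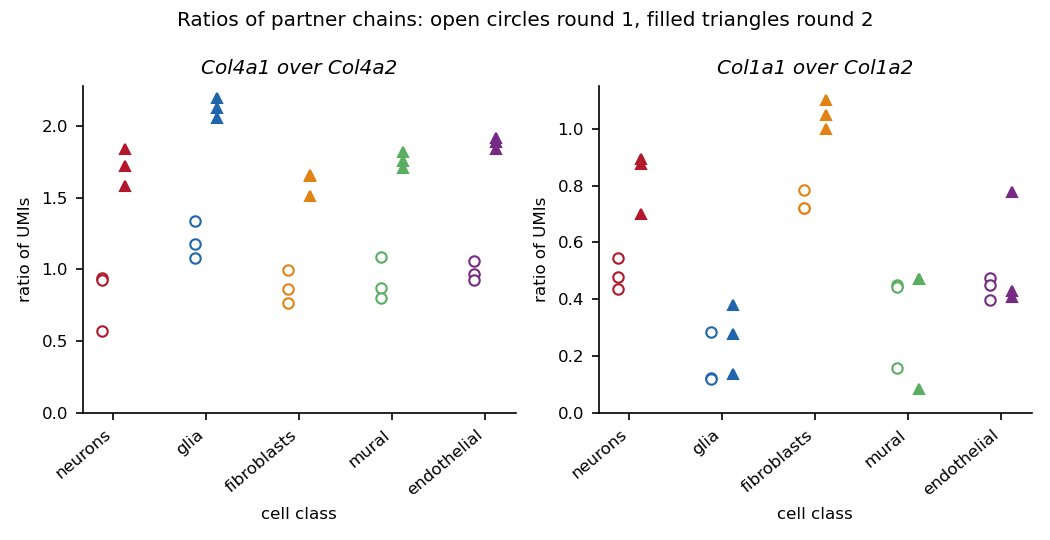
Ratio of *Col4a1* to *Col4a2* and of *Col1a1* to *Col1a2* UMIs in each class and library, by round. In all 5 classes the round 2 ratios of *Col4a1* to *Col4a2* lie above those of round 1, whereas those of *Col1a1* to *Col1a2* overlap between rounds in glia, mural and endothelial cells.

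Genes that fold, process, bind or break down collagen were counted beside the chains. Over all genes, 13.5% were higher and 12.6% lower in fibroblasts than in glia, and 22.3% higher and 22.4% lower in neurons than in glia. Of 31 folding and processing enzymes, 27 were tested, and 20 were higher and 1 lower in fibroblasts than in glia, while 2 were higher and 20 lower in neurons than in glia. The largest differences in fibroblasts were in *Adamts14*, which trims procollagen (log2 fold change 6.87 ± 0.76 (SE), adjusted p = 6.53e-09), *Lox*, which cross-links fibrils (log2 fold change 6.72 ± 0.64 (SE), adjusted p = 4.00e-10), and *Pcolce*, which aids trimming (log2 fold change 5.00 ± 0.25 (SE), adjusted p = 2.84e-16). In neurons the largest were in *Sparc* (log2 fold change -6.15 ± 0.29 (SE), adjusted p = 4.19e-17), *Loxl3* (log2 fold change -5.94 ± 0.24 (SE), adjusted p = 2.24e-19) and *Serpinh1*, the collagen chaperone (log2 fold change -5.90 ± 0.24 (SE), adjusted p = 9.75e-19). Of 6 receptors tested of 7, 3 were higher and 2 lower in fibroblasts than in glia, and 0 higher and 3 lower in neurons. The receptor chain *Itga2* was lower in both (log2 fold changes -5.53 and -4.49), and *Ddr2* was higher in fibroblasts (3.01) and lower in neurons (-2.51). *Itga10* was higher in fibroblasts (2.90) and *Itga1* lower in neurons (-1.02). Of 9 degrading enzymes and inhibitors tested of 13, 5 were higher and 1 lower in fibroblasts and 2 higher and 4 lower in neurons, so that the 1 lower in fibroblasts and the 2 higher in neurons were near the shares over all genes. The uptake receptor *Mrc2* (7.37) and *Timp1* (5.08) were higher in fibroblasts and *Timp3* lower (-3.62), while *Mmp14* (-6.41), *Ctsk* (-5.99) and *Timp3* (-5.61) were lower in neurons.

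The 10 members that did not pass the filter were *Col4a3*, *Col4a6*, *Col6a4*, *Col6a5*, *Col7a1*, *Col9a1*, *Col10a1*, *Col11a2*, *Col17a1* and *Col20a1*, with 50 to 859 UMIs each over all kept cells. They have levels but no test.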

How the data were processed

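Single cells of 6 ganglion preparations were counted by the authors with Cell Ranger 6.0.1 on mm10, per the labels. The promoter of the Cre transgene is not reported here. Their matrices were deposited as raw counts of UMIs, limited to droplets called as cells. A droplet was kept if it had more than 1500 but fewer than 11000 genes and less than 15% of UMIs from mitochondria. A cell was taken as a neuron if its neuronal markers averaged over 3 and its glial ones less than 1.15 after sctransform 0.4.2. All kept cells, neurons included, were clustered (3000 variable genes without collagens, 50 components, resolution 2). Cells that were not neurons by this rule took the class of their cluster, named from fixed markers. Clusters with more than a set share of neurons were given no class, so the other cells in them were left out. Doublets were simulated per library and left in, with their removal as an alternative.

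UMIs were summed per class and library, 36 sums of at least 10 cells. One fit of edgeR 4.0.16 (quasi-likelihood, TMM, R 4.3.3) held class and library as terms, and adjusted p-values were taken over all 13902 genes of a comparison. The library block pairs classes of 1 preparation, since they come from the same animals. With differences between libraries taken up by the block, the p-values measure how class differences vary from library to library, pooled over all classes. Since most libraries are of different ganglia, this is not a spread between animals. In simulated data the fit for fibroblasts against glia recovered 56.6% of 99 genes changed 2-fold and 99% of 100 changed 4-fold, and called 0.0374% of 13372 unchanged ones among 13571 genes. All sums were simulated from the same mean profile, with no differences between libraries and a dispersion of 0.1 for every gene. The recovery need not hold for genes that vary more. The free RNA rule recovered 100% of 200 genes raised to 6 times the expectation and 0% of 1464 others. Those neuron counts were drawn around the rule's own expectation. They show only that the rule computes as set, and cannot show whether that expectation is right. Wilson and Poisson intervals at 95% cover counting error only.

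Values per library are given for the 4 highest members of each class but macrophages, those above the free RNA expectation, those over 2-fold between ganglia in neurons and above it, and *Col1a1*, *Col1a2*, *Col3a1*, *Col4a1*, *Col4a2*, *Col8a1*, *Col24a1*, *Col25a1* and *Col28a1*. Of the related genes the 3 largest called changes per list were named. Members, lists and tests were chosen with earlier results of these data known. Gene positions follow the GENCODE annotation of GRCm38, in which 44 of 44 matched. Alternatives were other normalization, test, filters, blocks, cells, clusters and free RNA settings. That without cycling clusters was chosen after seeing the data.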

Additional observations from a re-analysis of the deposited data

Results flagged for a closer look

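By CPM, the difference between neurons and glia in *Col12a1* went opposite ways in the sphenopalatine and pelvic ganglia. The log2 ratio of CPM, neurons over glia, was 1.19 in the sphenopalatine, against -1.90 in pelvic_1 and -2.24 in pelvic_2. By UMIs per cell, neurons were above glia in each of these libraries. The levels were 0.380 against 0.0209 in the sphenopalatine, 0.114 against 0.046 in pelvic_1 and 0.398 against 0.233 in pelvic_2. The difference between ganglia was not tested, since the sphenopalatine has 1 library.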

How the results depend on the processing

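Single-gene values under alternatives were counted for only some of the tested genes. Of these 1105 values, 1063 kept their call, 35 lost it, 7 gained one and 0 turned. Over all 34 tested genes, calls in a round alone were less stable. Of the 24 genes higher in fibroblasts than mural cells, round 1 kept 18 and round 2 kept 20. Of the 16 higher in mural than endothelial cells, round 1 kept 9 and round 2 kept 10. For fibroblasts against mural cells, the 0 genes called lower became 3 with DESeq2 1.42.0, 1 with doublets removed and 1 with no replicate block. Without the block the call changed for no other count by over 1.5 times. In round 1 alone, mural against endothelial cells gave 9 higher and 5 lower. Neurons against glia gave 4 higher with no filter, 4 with free RNA subtracted (*Col6a2* and *Col6a6* added) and 1 in round 1 alone. Members above the free RNA expectation in neurons numbered 3 of 21 judged at a ratio over 2, 1 of 21 at a ratio over 5 and 1 of 21 with summed reference genes. They were 1 of 17 without neurons high in other cells' markers, 4 of 26 in round 1 and 5 of 23 in round 2. Without simulated doublets 3 of 16 were above (*Col5a3*, *Col9a3*, *Col23a1*), and with neurons by cluster 2 of 20 (*Col7a1*, *Col23a1*). A round alone asks for fewer libraries, so these counts are not like for like. No share over all genes is given for these settings. Leaving out single libraries gave 2 to 4 of 21 to 24 members, with 4 without the sphenopalatine. *Col23a1* was among them under every setting run. The share of neurons with at least 2 UMIs, then with 1 after thinning to 4000, was 62.2% and 38.8% for *Col8a1* in the sphenopalatine, 24.1% and 5.17% for *Col25a1* in the coeliac, 25.2% and 6.07% for *Col24a1* in the pelvic ganglion and 14% and 4.87% for *Col8a1* there. Leaving out each pelvic library gave 35.4 to 55.3% for *Col24a1* and 17.03 to 29.54% for *Col8a1*. The cause of these changes was not tested. Few mural and endothelial cells limit the depth of low genes there.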

Other observations

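Small clusters outside the named classes held collagen patterns of their own, given as levels with exact Poisson intervals over pooled libraries. These clusters were not among the sources of the free RNA expectation. A cluster of 31 cells led by *Krt15*, *Krt14* and *Epcam* held *Col17a1*, the hemidesmosome chain, at 63.0 CPM (49.4 to 79.2) and *Col18a1* at 248.5 CPM (220.6 to 278.9). It held *Col7a1* at 84.6 CPM (68.7 to 103). A cluster of 23 cells led by *Upk3b* and *Krt19* held *Col3a1* at 7427 CPM (7168 to 7692), *Col1a1* at 3199 CPM (3030 to 3374) and *Col14a1* at 663 CPM (587.5 to 745.6). A cluster of 67 cells led by *Igfbp2*, *Meis2* and *Rspo3* held *Col13a1* at 105.4 CPM (90.28 to 122.3) beside *Col1a1* at 6306 CPM (6185 to 6428). *Col12a1* was there at 108.4 CPM, *Col23a1* at 36.6, *Col25a1* at 34.7 and *Col9a1* at 21.3. A cluster of 29 cells led by *Timp4* held *Col5a3* at 353.1 CPM (268.8 to 455.5) and *Col24a1* at 179.6 CPM (121.1 to 256.3).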
